A study of Homo sapiens with 3 samples.

Results

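Expression of 10 tubulin genes was compared between C4-2B prostate cancer cells that grow under second-generation anti-androgen drugs and the C4-2B parental line. C4-2B is an established castration-resistant line derived from LNCaP. C4-2B MDVR cells were kept in 20 µM enzalutamide, which blocks the androgen receptor, and C4-2B AbiR cells in 10 µM abiraterone acetate, which inhibits the androgen-synthesizing enzyme CYP17A1. C4-2B parental cells received no drug and, per the study's methods, were passaged alongside the sublines. All lines derive from C4-2B and share a serum-containing medium, and each line was measured on 1 Affymetrix HG-U133 Plus 2.0 array. Whether the sublines were cloned was not given in the sources used here. Resistance, the drug still in the medium and differences between cultures or arrays cannot be told apart, and no replicate error and no p-value are given. The genes were selected on their annotation as α-tubulins (TUBA1A, TUBA1B, TUBA1C and TUBA4A) and β-tubulins (TUBB, TUBB2A, TUBB2B, TUBB3, TUBB4B and TUBB6). This family was chosen from the array values, because TUBA1A was high in both resistant lines, so that the values of TUBA1A against parental cells are a description and no finding. All 10 genes, of 19775 genes read in all, had at least 1 probe set of their own.

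Microtubules are polymers of α- and β-tubulin dimers, and each partner is encoded by several genes. The encoded isotypes are alike over most of their length and differ mainly in the acidic tail that projects from the microtubule surface, where enzymes modify it and motors bind. TUBA1B and TUBB are broadly expressed in dividing cells, TUBA1A is the main α-tubulin gene of the developing brain, and TUBB3 and TUBB2B are best known from neurons. β-tubulin is the target of taxanes, which are used in castration-resistant prostate cancer.

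The values are log2 signals processed by RMA (robust multi-array average) that the authors had centred for each probe set. Only differences between arrays within a probe set carry information, and whether a gene was expressed far above background could not be read. A probe set is a group of short probes for a transcript. Those with the suffix _x hold probes that can bind other transcripts, and those with the suffix _s bind several transcripts alike, which matters for genes as similar as tubulins. The 10 genes were read by 21 probe sets, of which 16 had such a suffix and 1 was annotated to TUBB2A and TUBB2B jointly. TUBA1A, TUBA1C, TUBB2B, TUBB3 and TUBB4B were read by suffixed probe sets alone. Differences of 45 spiked bacterial controls had an SD of 0.13 in MDVR and 0.10 in AbiR against parental cells, and of 0.12 between the sublines. Their largest sizes were 0.35, 0.20 and 0.34. These ranges serve as a scale for technical noise of single probe sets. Of 10 luminal prostate markers, 3 were at least 2-fold lower in each subline, beside 1.67% of all genes in MDVR and 0.804% in AbiR, and the list medians were −0.14 and −0.11. Others lay above 0 in both, among them ACP3 (0.64 and 0.85), HOXB13 (0.37 and 0.17) and KRT8 (0.32 and 0.30). KLK3, which encodes prostate-specific antigen, was at −4.07 ± 3.23 in MDVR and −3.17 ± 2.36 in AbiR against parental (SD between 3 probe sets), and SLC45A3 at −2.91 ± 0.72 and −3.15 ± 0.35 (2 probe sets). KLK2 was at −1.29 ± 1.19 and −2.12 ± 1.93, and its 1 probe set with no suffix lay above 0 in both sublines.

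Promoter sequences are shown for TUBA1A and TUBB6, those of the 10 genes past 2-fold, and for TUBA1B, the neighbour of TUBA1A on chromosome 12 with values close to 0. Each is the 250 bases before the RefSeq start on build GRCh38.p14, with matches to CCAAT boxes (CCAAT) and GC boxes (GGGCGG) on either strand in capitals. TUBA1A lies at chr12:49189081-49189330 and TUBA1B at chr12:49131396-49131645, both on the minus strand, and TUBB6 at chr18:12307419-12307668 on the plus strand.
TUBA1A: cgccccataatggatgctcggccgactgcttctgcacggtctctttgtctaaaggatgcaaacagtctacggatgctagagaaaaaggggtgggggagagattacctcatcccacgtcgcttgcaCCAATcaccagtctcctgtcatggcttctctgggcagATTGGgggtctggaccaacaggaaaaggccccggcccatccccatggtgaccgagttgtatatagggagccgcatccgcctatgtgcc
TUBA1B: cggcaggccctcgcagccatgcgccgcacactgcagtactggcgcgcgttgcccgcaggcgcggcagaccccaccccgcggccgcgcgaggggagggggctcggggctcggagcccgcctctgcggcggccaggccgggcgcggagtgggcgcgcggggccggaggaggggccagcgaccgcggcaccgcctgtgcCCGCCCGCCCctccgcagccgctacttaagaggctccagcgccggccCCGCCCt
TUBB6: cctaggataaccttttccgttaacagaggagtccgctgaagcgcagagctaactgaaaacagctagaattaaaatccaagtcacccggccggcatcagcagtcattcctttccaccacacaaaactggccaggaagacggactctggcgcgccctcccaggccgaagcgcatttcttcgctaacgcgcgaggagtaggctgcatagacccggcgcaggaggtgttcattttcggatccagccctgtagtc

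The TUBA1A window held 2 CCAAT boxes, 125 bases before the start on the gene's strand and 88 bases before it on the other, and no GC box. The TUBA1B window held 3 GC boxes, 2 of which overlap, and no CCAAT box. Their GC content was 56.4% and 81.2%, and the median over 35116 RefSeq windows of this length was 58.0%. The printed TUBB6 window had a GC content of 55.2% and neither motif. A further start of TUBB6 in RefSeq had a window with a GC content of 83.6%, 6 GC boxes and 1 CCAAT box. All 10 genes matched the RefSeq table, with 15 windows between them. A CCAAT box was found in 9 of these 15 windows and in 32.0% of all windows, and a GC box in 9 of 15 and in 42.6%. The half-site of the androgen response element (AGAACA, either strand) was found in 2 overlapping windows of TUBA1C alone and in 12.4% of all windows. A cyclic AMP response element (TGACGTCA) and the TATA box (TATAAA) were each found in the window of TUBB2A alone, and in 1.65% and 10.7% of all windows. These matches are descriptions of letters and not of factor binding.

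TUBA1A was the tubulin gene with the largest difference in both sublines. Its single probe set, 209118_s_at, had a centred log2 value of 0.40 in MDVR cells and 0.074 in AbiR cells, against −3.22 in parental cells. The parental array stood apart, and both resistant arrays were close to each other. The log2 difference was 3.62 for MDVR minus parental, a 12.3-fold higher signal, and 3.29 for AbiR minus parental, a 9.80-fold higher signal. Of 19775 genes, 12 had a higher difference in MDVR and 10 in AbiR. For MDVR minus AbiR the difference was 0.32, within the largest difference of a spiked control. Both comparisons with parental cells share the single parental array, and TUBA1A has no further probe set to set beside this one.

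**Figure D1:**
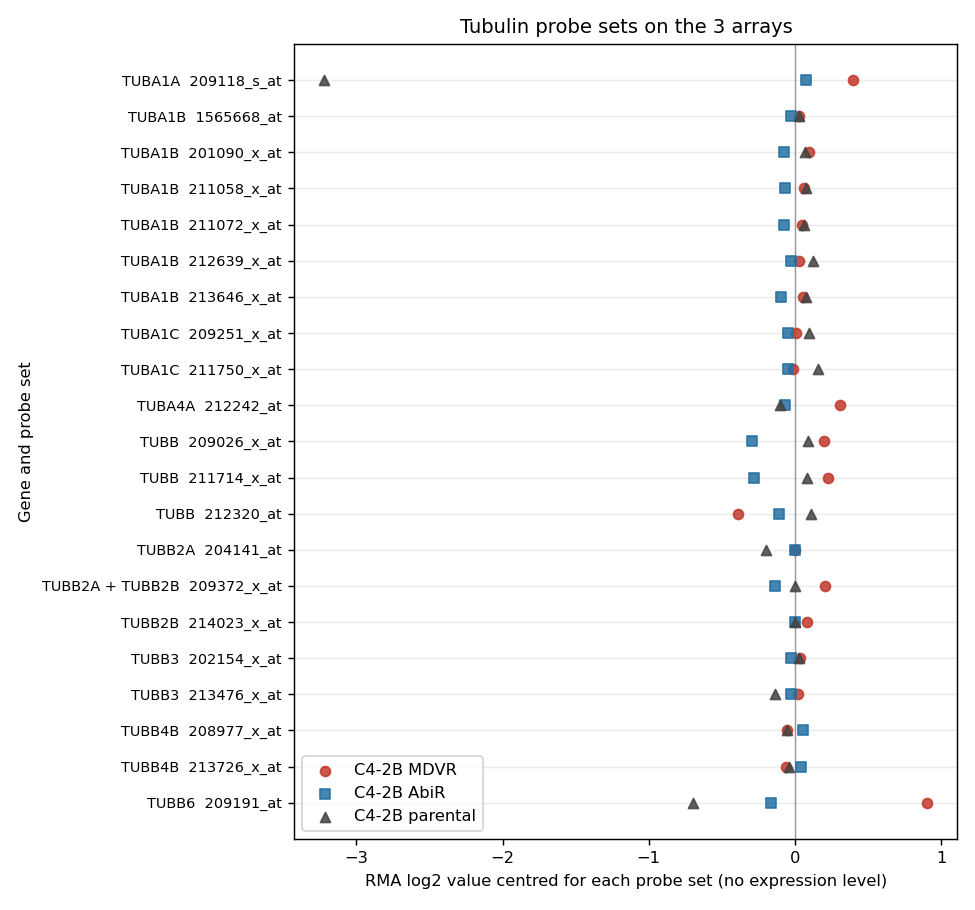
Centred RMA log2 values (x axis) of the 21 tubulin probe sets (y axis, gene and probe set) are shown for C4-2B MDVR (circles), C4-2B AbiR (squares) and C4-2B parental cells (triangles), 1 array each. The parental value of TUBA1A lies at −3.22, while all values of TUBA1B and TUBA1C lie close to 0.

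The other α-tubulin genes did not share this difference. TUBA1B, the broadly expressed α-tubulin that neighbours TUBA1A on the chromosome, had 6 probe sets with centred values from 0.025 to 0.097 in MDVR cells, from −0.093 to −0.025 in AbiR cells and from 0.027 to 0.13 in parental cells. Within probe sets, AbiR minus parental ran from −0.17 to −0.052 and MDVR minus AbiR from 0.050 to 0.17, all within the spiked control range. The mean difference was −0.020 ± 0.041 in MDVR and −0.13 ± 0.041 in AbiR against parental (SD between 6 probe sets, a technical spread). TUBA1C, a further α-tubulin of dividing cells that lies on the other side of TUBA1A, had values of 0.0078 and −0.011 in MDVR cells and −0.046 and −0.045 in AbiR cells, against 0.094 and 0.16 in parental cells. Both of its probe sets were lower in both sublines, by differences of −0.13 ± 0.057 in MDVR and −0.17 ± 0.042 in AbiR. Over both genes, 7 of 8 probe sets were below 0 for MDVR minus parental and 8 of 8 for AbiR minus parental, and none was past the largest spiked control difference. The range was −0.17 to 0.026 in MDVR and −0.20 to −0.052 in AbiR. Of all 19775 genes, 8392 were below 0 in MDVR and 10357 in AbiR. Most of the 8 probe sets have the suffix _x and can bind other transcripts, so that they are not independent readings.

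TUBA4A, which encodes an α-tubulin without the terminal tyrosine that most other α-tubulins carry, was read by 1 probe set with no suffix. Its centred values were 0.31 in MDVR cells and −0.071 in AbiR cells, against −0.10 in parental cells. MDVR was the array that stood apart, with a difference of 0.41 from parental and 0.38 from AbiR, each slightly past the largest spiked control difference. For AbiR minus parental the difference was 0.030. The log2 difference of TUBA1A exceeded that of TUBA1B by 3.64, that of TUBA1C by 3.74 and that of TUBA4A by 3.21 in MDVR. In AbiR it exceeded them by 3.43, 3.46 and 3.26. Against the mean of these genes the excess was 3.53 and 3.38, a description like the others, since the TUBA1A values chose the family. For MDVR minus AbiR the same quantity was 0.15. In that comparison TUBA1A was at 0.32, beside 0.38 for TUBA4A, 0.11 for TUBA1B and 0.044 for TUBA1C.

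TUBB6, which encodes the class V β-tubulin, was the other member past 2-fold. Its single probe set, with no suffix, had a centred value of 0.91 in MDVR cells and −0.17 in AbiR cells, against −0.70 in parental cells. The arrays were ordered parental, AbiR and MDVR from low to high, with each step larger than the spiked control differences. Against parental cells the log2 difference of TUBB6 was 1.60 in MDVR (3.04-fold) and 0.53 in AbiR (1.45-fold), and MDVR exceeded AbiR by 1.07 (2.10-fold). In MDVR minus parental, 0.647% of genes had a higher difference, and in AbiR minus parental 3.91%. TUBB6 was thus the member that differed most between the sublines.

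**Figure D2:**
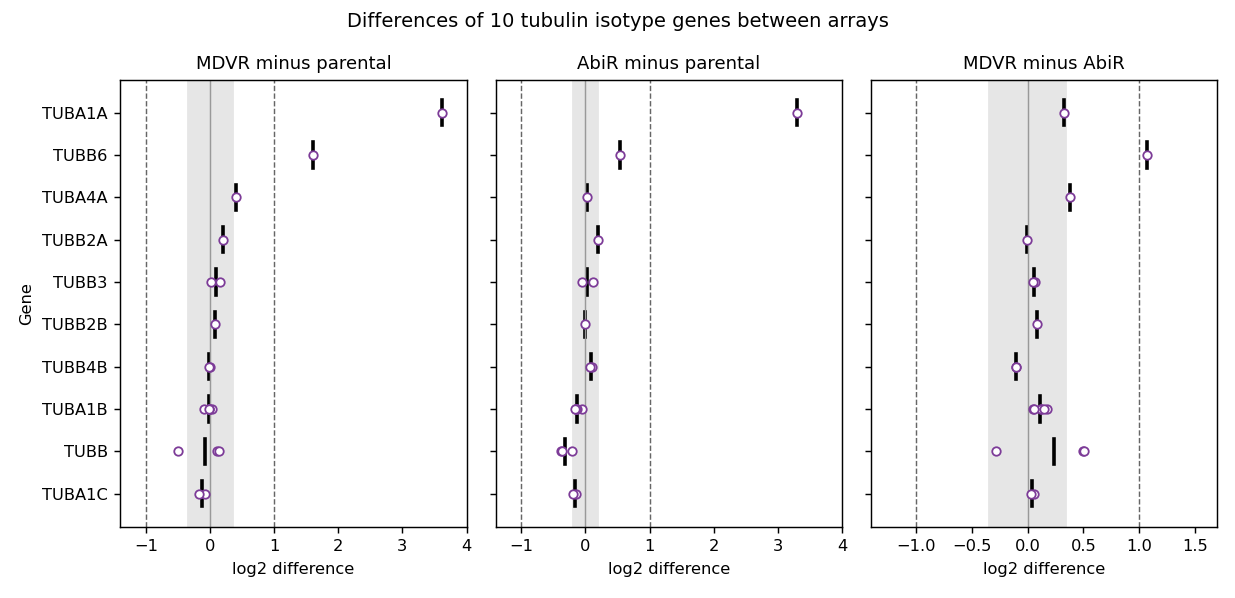
Log2 differences (x axes) of the 10 tubulin genes (y axis) are shown in a panel for each pair of lines (MDVR or AbiR minus parental, then MDVR minus AbiR), with open circles for probe sets annotated to 1 gene, black bars for their mean, dashed lines at 2-fold and a grey band for the largest difference of a spiked control. TUBA1A lies at 3.62 and 3.29 in the first panels and at 0.32 in the third, where TUBB6 lies at 1.07.

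TUBB, the β-tubulin of most dividing cells, was the gene whose probe sets went apart. The probe sets 209026_x_at and 211714_x_at had centred values of 0.20 and 0.22 in MDVR cells and −0.29 and −0.28 in AbiR cells, against 0.091 and 0.083 in parental cells. The probe set with no suffix, 212320_at, had −0.39 in MDVR cells and −0.11 in AbiR cells, against 0.11 in parental cells. In MDVR minus parental the suffixed probe sets were thus at 0.11 and 0.14 and the other at −0.50, a spread of 0.36 (SD) around a mean of −0.083. In AbiR minus parental all 3 were lower, at −0.39, −0.36 and −0.21 (mean −0.32 ± 0.093). This was the lowest value of a tubulin member in either comparison with parental cells, and 8.39% of genes were lower. For MDVR minus AbiR the signs again differed, with 0.49, 0.50 and −0.28, so that no direction can be given for TUBB between the sublines.

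The remaining β-tubulin genes differed little. TUBB2A, a class II β-tubulin, had a value of −0.00045 in MDVR cells and 0.00045 in AbiR cells, against −0.20 in parental cells. It was higher by 0.20 in both sublines, which was within the spiked control range in MDVR and at its edge in AbiR. TUBB2B, its near-identical neighbour, had 0.082 in MDVR cells and −0.0026 in AbiR cells, against 0.0026 in parental cells. The probe set annotated to both genes jointly had 0.20 in MDVR cells and −0.14 in AbiR cells, against 0.00 in parental cells. Both differences from parental lay within the largest spiked control difference, so that no direction is given for this probe set. For TUBB3, the neuronal class III β-tubulin, the mean differences were 0.085 ± 0.11 in MDVR and 0.029 ± 0.12 in AbiR over 2 probe sets. In AbiR the probe sets had opposite signs, at −0.053 and 0.11. TUBB4B, a class IV β-tubulin found in many tissues, was at −0.012 ± 0.013 in MDVR and 0.091 ± 0.018 in AbiR, and MDVR minus AbiR was at −0.11 and −0.10 in its probe sets. With arrays centred on the hybridization controls, the AbiR differences of TUBA4A, TUBB3 and TUBB4B lay below 0, so that no direction is given for them.

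Counted over the family, 2 of 10 genes were at least 2-fold higher in MDVR against parental, TUBA1A and TUBB6, where 1.65% of all genes were. In AbiR against parental 1 of 10 was, TUBA1A, beside 1.07% of all genes. The count includes the gene that chose the family, and without it 1 of 9 genes was past 2-fold in MDVR and 0 of 9 in AbiR. None of the 10 was at least 2-fold lower in MDVR or in AbiR, where 1.67% and 0.804% of all genes were. With arrays centred on the hybridization controls, the split of all genes in AbiR turned to 173 higher and 186 lower, beside 212 and 159 as deposited. For MDVR minus AbiR 1 gene, TUBB6, was at least 2-fold higher (0.875% of all genes) and none at least 2-fold lower (1.13%). The median over the 10 genes was 0.082 in MDVR and 0.030 in AbiR against parental, beside 0.044 and −0.011 over all genes. For MDVR minus AbiR the medians were 0.098 and 0.054. Differences under 0.25 on the log2 scale were found for 7 of 10 members in each comparison, beside 64.8% of all genes in MDVR and 74.9% in AbiR against parental, and 68.5% between the sublines.

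From high to low, the order in MDVR minus parental was TUBA1A, TUBB6, TUBA4A, TUBB2A, TUBB3, TUBB2B, TUBB4B, TUBA1B, TUBB and TUBA1C. The gaps after TUBA1A (2.01) and TUBB6 (1.20) were larger than the largest spiked control difference, and no later neighbours were separated by it. In AbiR minus parental the order was TUBA1A, TUBB6, TUBB2A, TUBB4B, TUBA4A, TUBB3, TUBB2B, TUBA1B, TUBA1C and TUBB. Here too the gaps after TUBA1A (2.76) and TUBB6 (0.33) were larger than that difference, and other neighbours were not separated. The spiked controls cover noise of the arrays only and not the spread between cultures, which was not measured.

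**Figure D3:**
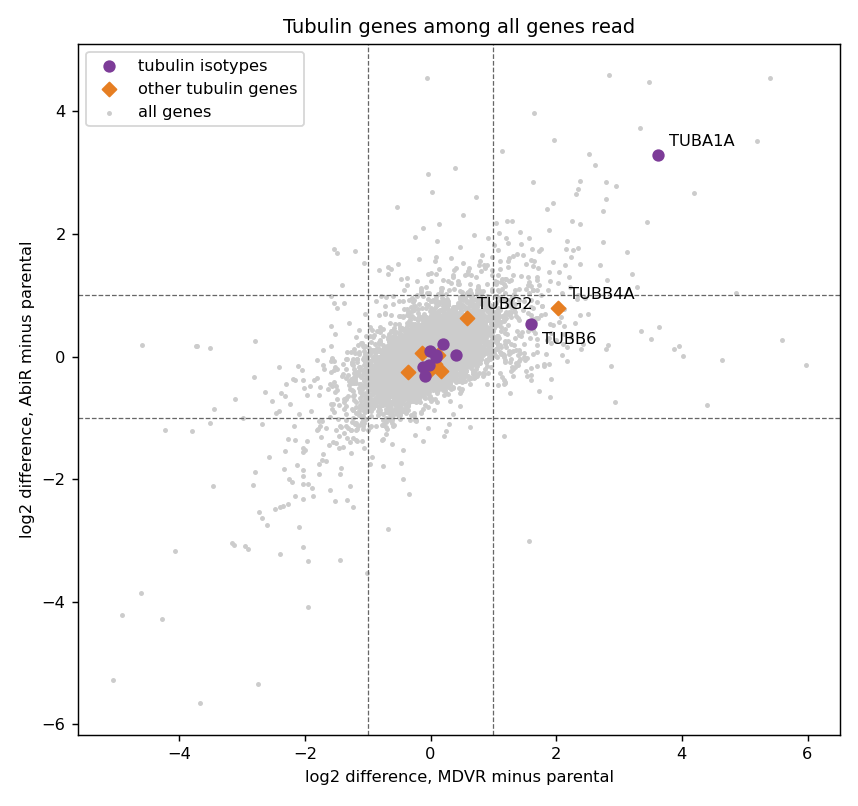
Log2 differences against parental cells are plotted gene by gene, C4-2B MDVR on the x axis and C4-2B AbiR on the y axis, with the 10 tubulin isotypes as circles, 8 other tubulin genes as diamonds, all genes in grey and dashed lines at 2-fold. TUBA1A lies at 3.62 and 3.29, and TUBB6 (1.60 and 0.53) and TUBB4A (2.02 and 0.79) lie past 2-fold in MDVR and under it in AbiR.

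The genes nearest to TUBA1A in the plane of both differences from parental, by Euclidean distance, were ATP1B1, AMIGO2, ADRA2A, ENO2 and WNT5A. Among genes whose probe sets all had 1 direction, the sodium pump subunit gene ATP1B1 was nearest at a distance of 0.53 (3.33 in MDVR and 3.74 in AbiR). The adhesion molecule gene AMIGO2 (2.94 and 2.78), the adrenergic receptor gene ADRA2A (4.19 and 2.66), the neuronal enolase gene ENO2 (2.80 and 2.85) and the Wnt ligand gene WNT5A (2.61 and 3.13) followed at 0.85, 0.86, 0.93 and 1.02. Likeness over 2 differences that share 1 array is weak, and carries no statement on function.

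Genes that lie beside TUBA1A on chromosome 12 had smaller differences than TUBA1A. Since the size of TUBA1A chose the family, and only 12 genes in MDVR and 10 in AbiR exceeded it, this carries little information. A shared cause in this region was not tested. Of the 6 protein-coding genes on each side in the RefSeq order, 11 of 12 were read. Their differences ranged from −0.13 to 1.02 in MDVR minus parental and from −0.19 to 0.49 in AbiR minus parental. RHEBL1, at 1.02, was alone past 2-fold in MDVR, and either array scaling would put it under 2-fold. At least 2-fold higher in MDVR were 1.65% of all genes. PRPH, which encodes the neuronal intermediate filament protein peripherin and lies beyond TUBA1C, was at 0.32 and 0.33. Around TUBB6 on chromosome 18, 10 of 12 neighbours were read, with differences from −1.07 to 0.24 in MDVR and from −0.47 to 0.38 in AbiR. AFG3L2, its measured neighbour on the downstream side, was at −0.43 and −0.047, and PRELID3A, the gene after it, at −1.07 and −0.47. These neighbourhoods were examined after the tubulin values were known.

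Tubulin genes outside the family as defined, with a probe set of their own, held 1 more large difference. TUBB4A, the class IV β-tubulin best known from brain, had a centred value of 1.22 in MDVR cells and −0.014 in AbiR cells, against −0.81 in parental cells. The order of the arrays was that of TUBB6, with log2 differences of 2.02 (4.07-fold) in MDVR and 0.79 in AbiR against parental, and 1.23 between the sublines. TUBG2, a γ-tubulin of the nucleation complex, was higher by 0.57 and 0.62, while TUBG1, the broadly expressed γ-tubulin, was at −0.015 and −0.23. Of 8 genes on this list with a probe set of their own, TUBB4A alone was past 2-fold against parental, in MDVR. Over all genes, 1.65% in MDVR and 1.07% in AbiR were at least 2-fold higher. The list medians were 0.089 (MDVR) and −0.044 (AbiR). The α-tubulin genes TUBA3C and TUBA3D were read by 2 joint probe sets only, of which 1 lay at −1.29 (MDVR) and −1.52 (AbiR). The other lay at −0.12 (MDVR) and −0.40 (AbiR). Its value in MDVR was within the largest spiked control difference, so that no direction is given for it there.

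**Figure D4:**
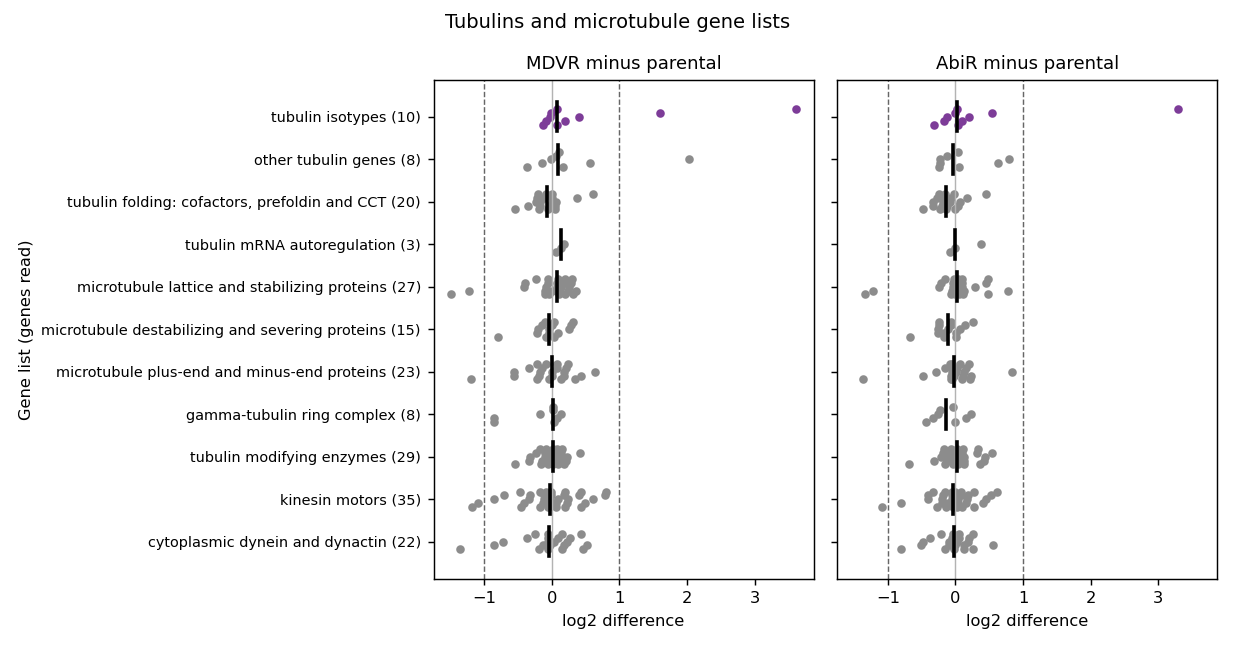
Log2 differences from the parental array (x axes) are shown in a left panel for C4-2B MDVR and a right panel for C4-2B AbiR, with 1 point per gene, a black bar at each list's median and dashed lines at 2-fold, for the tubulin isotypes and 10 other lists, which run down the y axis with their gene numbers. List medians lie near 0, and TUBA1A at 3.62 and 3.29 lies farthest to the right in both panels.

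New tubulin is folded by prefoldin and the chaperonin CCT and joined into dimers by the cofactors TBCA to TBCE. Of 20 genes read on a list of these, which also held ARL2, TBCEL and TXNDC9, none was past 2-fold in any comparison. The medians were −0.069 (MDVR) and −0.15 (AbiR). The prefoldin subunit PFDN5 was highest in both (0.61 and 0.46), and TXNDC9 (−0.55 in MDVR) and PFDN2 (−0.49 in AbiR) were lowest. Excess free tubulin triggers decay of tubulin mRNA through TTC5, SCAPER and CNOT11, whose differences were between 0.063 and 0.19 in MDVR and between −0.079 and 0.38 in AbiR. A list of 29 genes covered enzymes that add or remove tyrosine, glutamate, glycine, acetyl or methyl groups on tubulin, with some of their partner proteins. Its medians were 0.018 and 0.027, and no gene was past 2-fold. VASH1 was highest in MDVR (0.42), TTLL7 highest in AbiR (0.54), AGTPBP1 lowest in MDVR (−0.54) and VASH2 lowest in AbiR (−0.69).

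Of 27 lattice-binding and stabilizing proteins, 2 were at least 2-fold lower in each subline (1.67% of all genes in MDVR and 0.804% in AbiR) and none higher. MAP9, which acts on the spindle, was at −1.23 ± 0.53 in MDVR and −1.33 ± 0.43 in AbiR over 4 probe sets, all lower in both. MAP1B, a neuronal microtubule-associated protein, was at −1.49 ± 0.87 in MDVR and 0.78 ± 0.17 in AbiR (3 probe sets). MAP2, which marks dendrites, was at 0.24 ± 0.22 in MDVR and −1.21 ± 0.65 in AbiR (2 probe sets). The MAP2 value in MDVR lay within the largest spiked control difference and was 0.085 without suffixed probe sets, so that no direction against parental is given for it. MDVR minus AbiR was at −2.27 for MAP1B and 1.45 for MAP2. Of 23 plus-end and minus-end proteins, SLAIN1, which promotes growth of plus ends, was the single gene past 2-fold, at −1.19 and −1.36, and the plus-end protein MAPRE2 was highest at 0.64 ± 0.87 and 0.83 ± 0.86, with 1 or more of its 3 probe sets below 0 in each.

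Of 15 destabilizing and severing proteins, none was past 2-fold, and the medians were −0.039 and −0.11. The neuronal stathmin STMN2 was highest in MDVR at 0.32, FIGNL1 highest in AbiR at 0.26, KATNAL1 lowest in MDVR at −0.79 and KIF18A lowest in AbiR at −0.67. The γ-tubulin ring complex, which seeds microtubules, had 8 genes read, with medians of 0.016 and −0.13. Its attachment factor NEDD1 was at −0.85 ± 0.16 and −0.44 ± 0.16 (3 probe sets), and TUBGCP3 at −0.85 ± 0.48 in MDVR, where 2 of its 3 probe sets were past 2-fold lower.

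Motor genes had medians near 0. Of 35 kinesin genes, KIF13B (−1.18 in MDVR and −1.09 in AbiR) was at least 2-fold lower in both, and the mitotic kinesin CENPE (−1.09 and −0.81) in MDVR. Over all genes, 1.67% in MDVR and 0.804% in AbiR were at least 2-fold lower. KIF3C was highest in MDVR at 0.80 and KIFC2 highest in AbiR at 0.62. Among 22 dynein and dynactin genes, the adaptor BICD2 was at −1.35 ± 0.78 in MDVR and −0.80 ± 0.37 in AbiR over 4 probe sets, all lower in both.

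Markers of other cell types were read beside the tubulins. Of 23 neuronal and neuroendocrine markers, 3 were at least 2-fold higher in MDVR (BEX1 at 4.86, SYT4 at 4.41 and ENO2 at 2.80) and 2 in AbiR (ENO2 at 2.85 and BEX1 at 1.04), beside 1.65% and 1.07% of all genes. With arrays centred on the hybridization controls, BEX1 was at 0.945 in AbiR, which left 1 marker past 2-fold. The list medians were 0.11 and −0.045, and 0 markers were at least 2-fold lower. Of 9 fibroblast and mesenchymal markers, FN1 alone was past 2-fold (1.40 ± 0.82 and 1.09 ± 0.74, 7 probe sets), and without suffixed probe sets it was under 2-fold at 0.31 and 0.12. In the same list, VIM was lowest at −0.42 ± 0.45 and −0.77 ± 1.14 (2 probe sets). The 5 basal markers had no difference past 2-fold. The 8 proliferation markers had medians of −0.31 in MDVR and −0.25 in AbiR, with CCNA2 lowest (−1.18 and −0.93). Since centring removed the levels, it could not be read whether any defining marker was at background, and the part of these markers in the tubulin differences was not tested. In bulk RNA, more cells of a type and more RNA per cell cannot be told apart.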

How the data were processed

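Total RNA of C4-2B MDVR, C4-2B AbiR and C4-2B parental cells was hybridized to 3 Affymetrix HG-U133 Plus 2.0 arrays, 1 per line. The authors deposited log2 values for 54675 probe sets, made with RMA, as the submitters' processing notes name it, and its version was not given in the sources used here. The values had been centred for each probe set. Of the probe sets, 100% fitted a centre at the median of 4 arrays, but centring on 3 arrays would fit too. A pair of values of equal size and opposite sign was found in 53.38%. The median of 4 arrays gives such pairs, so that 1 further array, not analysed here, appears to have entered the centring. Groups were taken from the sample labels.

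Gene names came from GEO's annotation of the array, with symbols updated through gene IDs to RefSeq (GRCh38.p14). A gene's value was the mean of the probe sets annotated to it alone (41097 probe sets, 19775 genes), and jointly annotated probe sets were given apart. Log2 differences between arrays were taken with no floor, in Python 3.11.15 with pandas 2.3.3, and differences of at least 2-fold were counted. With 1 array per group no test was made, and the number of arrays limits the precision. Scripts were tested on simulated data. Named were all members, list genes past 2-fold in MDVR or AbiR or highest or lowest of their list (not all are given), and the 5 genes nearest to TUBA1A. Other genes named were chosen after their values were seen. Members and lists were chosen with earlier results of these data known. Promoters came from RefSeq, without the transcribed bases. Alternatives were 2 array scalings, 4 ways to summarize probe sets and 2 other thresholds.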

Additional observations from a re-analysis of the deposited data

Results flagged for a closer look

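On the microtubule and marker lists, the signs of MDVR minus parental and AbiR minus parental were opposite, and the sublines at least 2-fold apart, for MAP1B, MAP2 and SYT4, and for none of the 10 tubulin genes. The MDVR minus AbiR difference was −2.27 for MAP1B, 1.45 for MAP2 and 5.20 for SYT4, a synaptotagmin of neurons. SYT4 was at 4.41 in MDVR and −0.79 in AbiR against parental. For MAP2 the value in MDVR, 0.24, lay within the largest spiked control difference of 0.35 and was 0.085 with the widest probe set, so that its side of parental is not established. With 1 array per line these differences between the sublines were not tested.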

How the results depend on the processing

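When suffixed probe sets were dropped, TUBA1A had no value, and the count of members at least 2-fold higher was 1 in MDVR and 0 in AbiR against parental. KLK2 was then at 0.20 and 0.11, opposite in sign to its mean of −1.29 and −2.12 over 4 probe sets. Leaving out TUBA1A, an alternative chosen after seeing the data, gave the same counts of 1 and 0. At 3-fold, the count for MDVR minus AbiR was 0. For the 10 tubulin genes, the other counts past 2-fold moved by no more than 1.5 times under the alternatives run. The family medians moved by less than the spiked control SD. In AbiR against parental the median was −0.061 with hybridization-control centring and 0.030 as deposited, so that no direction is given for it. In MDVR against parental it was 0.20 without suffixed probe sets and 0.082 with all. The excess of TUBA1A over the mean of the other α-tubulins moved by less than that SD too, but these alternatives could hardly change it. Array scaling cancels in this excess, TUBA1A has 1 probe set, and without suffixed probe sets the excess had no value. Calls of list genes did change: FN1 was at 0.31 and 0.12 without suffixed probe sets, BEX1 at 0.945 and CCNA2 at −1.02 in AbiR with hybridization-control centring, and TUBGCP3 at −1.08 in MDVR with the median of its probe sets. Array scaling shifts every gene of a comparison by the same constant, which was below the spiked control SD in each. None of the 30 member differences could therefore move by more than that SD. TUBB was at 0.11 in MDVR with the median of its probe sets, at 0.14 with the widest and at −0.50 without suffixed ones, where 3 member differences, all of TUBB, moved. With joint annotations TUBB2A was at 0.031 in AbiR minus parental and 0.17 in MDVR minus AbiR, and TUBB2B at 0.21 in MDVR minus AbiR. Taking each gene's widest probe set gave 574 genes at least 2-fold higher and 771 lower in MDVR (327 and 331 with the mean), 416 and 280 in AbiR (212 and 159), and 317 and 625 between the sublines (173 and 224). Centring on hybridization controls put the median of all genes in AbiR at −0.10, against −0.011 as deposited. No paired analysis was possible because each group has 1 array.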
